A study of Homo sapiens with 6 samples.

Results

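The long non-coding RNA genes MIR17HG, MIR22HG, MIR210HG, MIR155HG, DLEU2 and MIR100HG, which carry microRNAs, were examined for Myc occupancy in MDA-MB-231 cells. They were chosen by name as hosts of microRNA clusters, among them clusters known to be activated or repressed by Myc, and make up 6 of the 64083 genes with a basic GENCODE transcription start site (TSS) and 6 of the 18702 long non-coding RNA genes in that set. A peak was assigned to a gene when its summit, the base of highest read pile-up, lay within 5 kb of any of its start sites.

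Myc was immunoprecipitated with its bound DNA and sequenced (ChIP-seq) to ask how loss of TXNIP, the thioredoxin interacting protein, affects the genomic binding of Myc. The parental group was MDA-MB-231, a human triple-negative breast cancer line. The TKO group was the same line after TXNIP knockout with a CRISPR/Cas9 plasmid, with clones isolated from single cells, so that clone and loss of TXNIP cannot be told apart. Each group had 2 Myc libraries, which the study describes as biological replicates, and 2 further samples were input chromatin. Both cell lines were grown in the same medium and processed with the same antibody, D3N8F. Myc peaks do not measure TXNIP, so the knockout itself could not be checked in these lists.

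A host gene is transcribed as a long primary RNA, from which hairpins are cut and trimmed into mature microRNAs of about the length shown here. A microRNA recognises messenger RNAs mainly through its seed, bases 2 to 8 from the 5′ end, so microRNAs that share a seed share most targets. Myc, a basic helix-loop-helix factor that pairs with MAX and prefers the E-box CACGTG, is known to activate MIR17HG and to lower miR-22, miR-15a, miR-16 and let-7 family members, which MIR22HG, DLEU2 and MIR100HG carry, while MIR210HG is best known as a hypoxia-induced host and MIR155HG as a host active in immune cells and lymphomas.

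The mature sequences of the 6 hosts show what the peaks lie next to, and all 14 that were looked up were found in RefSeq (GRCh38.p14 table). Seeds are in capitals. Within MIR17HG, miR-17-5p and miR-20a-5p share 1 seed and miR-19a-3p and miR-19b-3p another, and the pair from DLEU2, miR-15a-5p and miR-16-5p, also has a common seed.
hsa-miR-17-5p (MIR17HG): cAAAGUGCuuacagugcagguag
hsa-miR-20a-5p (MIR17HG): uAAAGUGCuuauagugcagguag
hsa-miR-18a-5p (MIR17HG): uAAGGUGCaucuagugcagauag
hsa-miR-19a-3p (MIR17HG): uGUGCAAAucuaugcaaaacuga
hsa-miR-19b-3p (MIR17HG): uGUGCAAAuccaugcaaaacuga
hsa-miR-92a-3p (MIR17HG): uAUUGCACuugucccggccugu
hsa-miR-22-3p (MIR22HG): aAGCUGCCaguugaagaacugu
hsa-miR-15a-5p (DLEU2): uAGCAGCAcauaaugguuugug
hsa-miR-16-5p (DLEU2): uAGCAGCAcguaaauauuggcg
hsa-miR-100-5p (MIR100HG): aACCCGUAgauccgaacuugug
hsa-let-7a-5p (MIR100HG): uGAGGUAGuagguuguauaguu
hsa-miR-125b-5p (MIR100HG): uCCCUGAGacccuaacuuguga
hsa-miR-210-3p (MIR210HG): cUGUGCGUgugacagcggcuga
hsa-miR-155-5p (MIR155HG): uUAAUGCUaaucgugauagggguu

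The 4 lists differed in length, with 3720 and 5719 peaks in parental replicates 1 and 2 and 27213 and 25887 in TKO replicates 1 and 2. Depth recovered from the parental lists was 26.4 and 22.2 M reads, and from the TKO lists 19.9 and 13.0 M, so the longer lists came from fewer reads. The reads at a peak's summit were recovered from its fold enrichment and p-value and were divided by the depth of the library in M reads, a level written here as RPM. The lowest level of any peak lay between 0.451 and 0.537 RPM in the 4 lists, but a call also depends on the local background, so a gene with no peak may have had Myc below or above that level. In a bulk sample, Myc bound in more cells and more Myc bound per cell cannot be told apart.

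MIR17HG was the 1 host gene of the 6 with a Myc peak in parental cells, and it had peaks in all 4 libraries. A peak stood at 1 of 6 genes in parental replicate 1 and in parental replicate 2, at 4 in TKO replicate 1 and at 5 in TKO replicate 2. Over all 64083 genes, 7.01% and 8.33% had a peak in parental replicates 1 and 2, and 28.9% and 29.0% in TKO replicates 1 and 2. MIR22HG, DLEU2 and MIR100HG, the 3 hosts of microRNAs lowered by Myc, had peaks in both TKO libraries and in no parental library, a pattern held by 16.6% of all genes. MIR210HG had a peak in TKO replicate 2 alone, and MIR155HG had none. A peak in all 4 libraries, as at MIR17HG, was found at 5.46% of all genes.

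Summed over the 6 genes there were 1 and 2 peaks in parental cells and 15 and 13 in TKO, or 1.5 ± 0.707 and 14 ± 1.41 (SD, n = 2 each), and the groups did not overlap. The ratio of the means was 9.33, with an exact two-sided permutation p of 0.333, the smallest that the 6 splits of 2 against 2 allow, so no such test could pass 0.05. Over all genes the number of peaks within 5 kb of a TSS had a ratio of means of 5.52, and the whole lists of 5.63, with no test of the difference from the 6 genes. The number of genes with a peak was 1 and 1 against 4 and 5, a difference of 3.5, with the same exact permutation p of 0.333. Cut to 3720 peaks each by −log10 p-value, the 4 lists held 1, 2, 2 and 1 peaks at these genes, all at MIR17HG, so the ratio was 1 and the difference in genes was 0. Such a cut by rank removes any rise common to all sites, so these counts do not show that levels were alike.

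**Figure D1:**
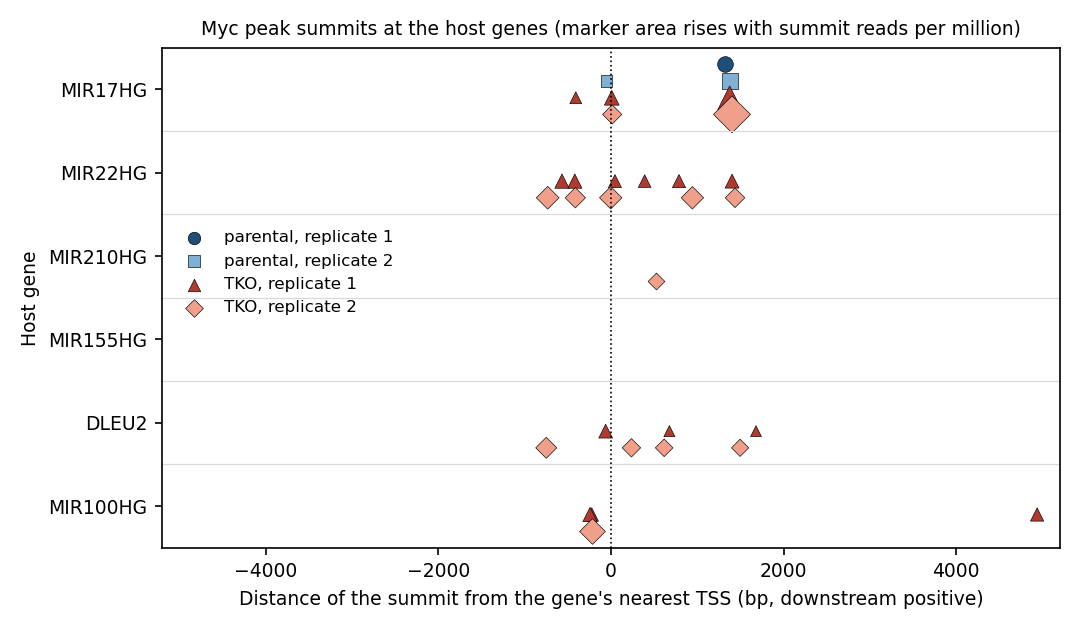
Summits of all 31 peaks at the 6 host genes, by distance from the gene's nearest TSS (bp, downstream positive), with 1 marker shape per library and marker area rising with RPM. MIR17HG alone carries parental markers, and its largest markers lie between 1326 and 1403 bp downstream.

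The 31 peaks fell into 16 sites, where peaks of different libraries overlapping by at least 1 bp counted as 1 site. One site was called in all 4 libraries, 1 in parental replicate 2 and both TKO libraries, 9 in both TKO libraries only, and 5 in a single TKO library. Of the 31 summits, 22 lay within 1 kb of a start site, 23 in an intron, 4 in an exon and 4 upstream of the gene.

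MIR17HG (ENSG00000215417) lies on the plus strand of chromosome 13, at 91999940 to 92049846 in hg19, and encodes the miR-17, miR-18a, miR-19a, miR-20a, miR-19b and miR-92a hairpins, which promote proliferation and restrain apoptosis in many tumours. Its strongest peak in every library lay in an intron, in a site spanning 92001196 to 92001841. The 4 summits were 1326, 1376, 1376 and 1403 bp downstream of the nearest of 3 start sites, within 77 bp of each other. From the summits to the first base of miR-17-5p, at 92002872, was 1472, 1422, 1422 and 1395 bp in the same order of libraries, so the site stands between the start of the host and the cluster it encodes.

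The window around the 4 summits is shown because it holds the strongest Myc peak of the set, with the variant E-box CATGTG in capitals (hg19, plus strand).
MIR17HG intron, chr13:92001340-92001537: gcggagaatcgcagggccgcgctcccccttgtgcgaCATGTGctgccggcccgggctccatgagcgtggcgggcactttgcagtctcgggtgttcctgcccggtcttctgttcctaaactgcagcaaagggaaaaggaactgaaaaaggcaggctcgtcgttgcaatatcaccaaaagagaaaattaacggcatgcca
The summits are bases 61, 111, 111 and 138 of this window in parental replicates 1 and 2 and TKO replicates 1 and 2. CATGTG begins at base 37, and its centre was 22, 72, 72 and 98 bp from the 4 summits. No CACGTG was found on either strand within 500 bp of the summit of TKO replicate 1, where 1 CACGCG lay 322 bp away and 1 CACGAG 138 bp away.

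At the intronic site the parental libraries had 51 and 43 reads at the summit and the TKO libraries 104 and 85. Scaled to depth, the parental levels were 1.93 and 1.94 RPM and the TKO levels 5.21 and 6.52 RPM. Both TKO levels stood above both parental levels, and the exact Poisson 95% intervals, which cover counting error only, ran from 1.44 to 2.54 and from 1.40 to 2.61 for the parental libraries, and from 4.26 to 6.32 and from 5.21 to 8.06 for TKO. The means were 1.93 ± 0.00579 and 5.87 ± 0.923 (SD, n = 2 each), a ratio of 3.03, with an exact two-sided permutation p of 0.333, the smallest possible. Neither the levels nor the intervals are corrected for the longer read extension of the TKO libraries. The close parental pair rests on 2 libraries, and its SD was far below the counting error of either.

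**Figure D2:**
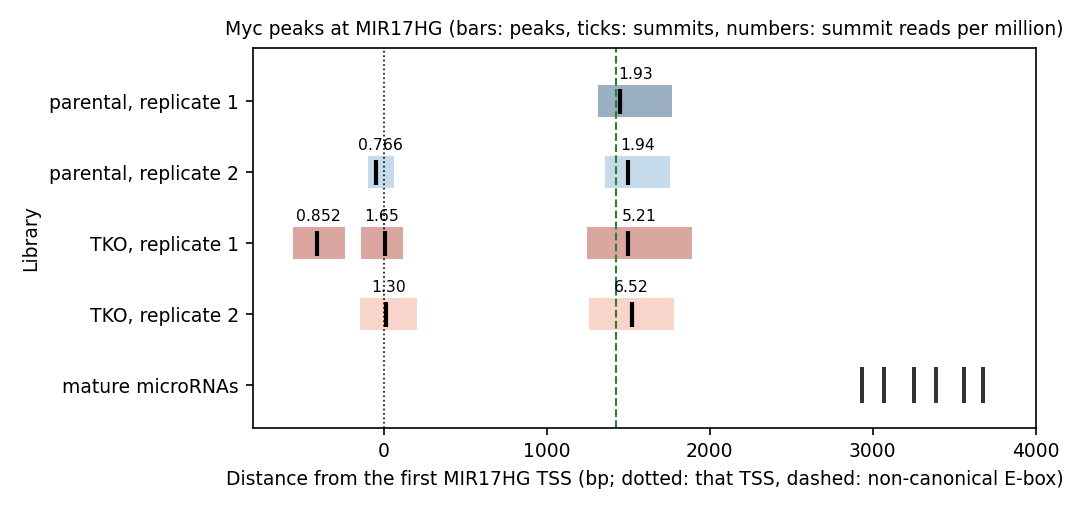
Peaks at MIR17HG in the 4 libraries, as bars along the distance from its first TSS (bp), with summits as ticks, RPM as numbers, the first TSS dotted, CATGTG dashed and the 6 mature microRNAs in black. The intronic peak is present in each library and reads 1.93, 1.94, 5.21 and 6.52 from top to bottom.

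A higher TKO level in RPM was general among sites called in all 4 libraries. At 98.0% of 2631 such sites both TKO levels exceeded both parental levels, so the same order at MIR17HG is not particular to it. This share was counted in RPM alone, with no correction for the longer TKO extension. The median ratio over these sites was 2.40, with 5th and 95th percentiles of 1.51 and 3.39, and MIR17HG at 3.03 was above 87.3% of them. By pairs of libraries, MIR17HG stood at 2.70 and 2.69 for TKO replicate 1 over parental replicates 1 and 2, where all sites had medians of 2.32 and 2.18. For TKO replicate 2 it stood at 3.38 and 3.36, where the medians were 2.63 and 2.48. Among the 811 sites whose mean parental level was 0.8 to 1.25 times that of MIR17HG, the median ratio was 2.38.

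The place of MIR17HG above the median depended on the measure. The authors' fold enrichment sets summit reads, as scaled by the peak caller, over local background, with a small constant added to both. By this fold the 4 peaks had 14.6, 17.5, 24.8 and 33.3. Their ratio of TKO to parental means was 1.81, against a median of 1.84 over all 2631 sites. With summit reads divided by the genome background of each library, MIR17HG was at 2.29 and the median at 1.83. That background rises with depth and extension length, so it takes account of the longer TKO extension, which RPM does not. Since depth was itself recovered from that background and length, the 2 measures differ only by a constant factor per library, its extension length. The step from 3.03 to 2.29, and of the median from 2.40 to 1.83, is this factor alone. The measure over genome background is thus no separate test of where MIR17HG stood against the median. The length itself was taken from the narrowest peak of each list. The reads expected from the local background at this peak, on the scale of the peak caller, were 2, 1.51, 3.23 and 1.58 in the 4 libraries.

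**Figure D3:**
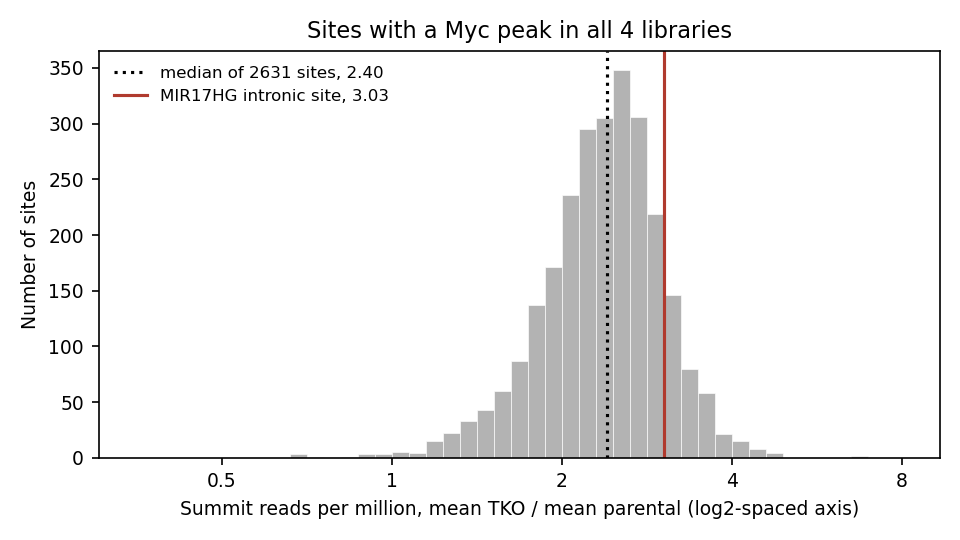
Number of sites by the ratio of mean TKO to mean parental RPM, for the 2631 sites with a peak in all 4 libraries, on an axis spaced by log2. The MIR17HG intronic site (red line, 3.03) lies right of the median (dotted line, 2.40) and left of the 95th percentile, 3.39.

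MIR17HG ranked near the top of each list. By fold its intronic peak was 48th of 3720 and 13th of 5719 in the parental lists and 114th of 27213 and 20th of 25887 in TKO. With genes ranked by their strongest peak, MIR17HG was 87th of 4493, 21st of 5336, 219th of 18488 and 35th of 18601 genes with a peak. The −log10 q-values, the authors' significance after correction, were 35.5, 40.3, 111 and 108.

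A second MIR17HG peak stood at the start of the gene, weaker than the intronic one in every library that had it. Its summits were 50 bp upstream of the TSS in parental replicate 2 and 10 and 15 bp downstream in TKO replicates 1 and 2. The levels were 0.766, 1.65 and 1.30 RPM, from 17, 33 and 17 reads, and parental replicate 1 had no peak there. The Poisson 95% interval of parental replicate 2, 0.446 to 1.23, overlapped that of each TKO library, 1.14 to 2.32 and 0.760 to 2.09. Such overlap is no test of a difference, and the difference at this peak was not tested. By percentile of fold within its list, the start-site peak was at 90.2 in parental replicate 2, 96.7 in TKO replicate 1 and 86.9 in TKO replicate 2. TKO replicate 1 had a further peak 407 bp upstream, with 17 reads and 0.852 RPM.

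The start-site window of TKO replicate 1 is given because it holds a CATGTG, read here from the opposite strand, in capitals (hg19, plus strand).
MIR17HG start, chr13:91999901-92000021: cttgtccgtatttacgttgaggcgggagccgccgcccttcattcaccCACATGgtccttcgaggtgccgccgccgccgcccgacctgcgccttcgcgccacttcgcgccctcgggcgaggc

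MIR22HG (ENSG00000186594), host of the growth-restraining miR-22, lies on the minus strand of chromosome 17 at 1614741 to 1620468 and held the largest number of peaks of the 6 genes, 6 and 5 in the TKO libraries and none in the parental ones. Of its sites, 5 were called in both TKO libraries and 1 in TKO replicate 1 alone, together covering the promoter and the first part of the gene. The strongest peak by fold was 789 bp downstream of a TSS in TKO replicate 1, with 24 reads and 1.20 RPM. In TKO replicate 2 it lay 2 bp upstream of a TSS, with 26 reads and 1.99 RPM. Their fold percentiles were 64.6 and 76.0, in the upper part of their lists but far from MIR17HG at 99.6 and 99.9. The other MIR22HG peaks ran from 1.05 to 2.07 RPM, and the local background under them reached 8.07 reads. A start site of WDR81, the protein-coding gene on the other strand, lay within 5 kb of every MIR22HG summit in both TKO libraries. By the 5 kb rule each of these peaks, the strongest included, therefore counts for WDR81 as well, and some also count for TLCD2. The WDR81 start was nearer than that of MIR22HG at 1 shared site (28 and 22 bp) and at the site of TKO replicate 1 alone (182 bp). At the other sites the MIR22HG start was nearer, but nearness does not show which gene a peak serves. The mature miR-22-3p, at 1617208 to 1617229 in an exon, was 867 and 833 bp downstream of the nearest of these summits in TKO replicates 1 and 2.

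The windows at 2 MIR22HG sites show the nearest variants to the E-box there, CACGAG at the start, where it is read from the opposite strand, and CATGCG in the intron (hg19, minus strand).
MIR22HG start, chr17:1619442-1619562: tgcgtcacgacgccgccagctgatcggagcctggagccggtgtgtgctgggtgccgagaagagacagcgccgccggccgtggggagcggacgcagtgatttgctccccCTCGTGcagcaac
MIR22HG intron, chr17:1618036-1618156: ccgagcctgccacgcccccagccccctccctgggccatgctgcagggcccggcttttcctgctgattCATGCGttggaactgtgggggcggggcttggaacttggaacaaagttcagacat

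DLEU2 (ENSG00000231607), deleted in a common chronic lymphocytic leukaemia lesion and host of miR-15a and miR-16, spans chromosome 13 from 50530806 to 50699856 on the minus strand with 7 start sites. It had no parental peak, 3 peaks in TKO replicate 1 and 4 in TKO replicate 2, which fell into 3 sites. The strongest by fold was 678 bp downstream of a TSS in TKO replicate 1, at 0.652 RPM from 13 reads. In TKO replicate 2 it lay in an intron, 749 bp upstream of an internal start site, at 1.69 RPM from 22 reads. These are different sites, and their fold percentiles were 49.5 and 79.8. At the intronic site by the internal start sites, TKO replicate 1 had 1 peak of 1270 bp with its summit at 61 bp upstream and 1.35 RPM. TKO replicate 2 had 2 separate peaks with summits within that span, at 238 bp downstream (1.15 RPM) and at 749 bp upstream. By the 5 kb rule every DLEU2 peak also counts for another gene. All summits at this internal site count for DLEU1, the neighbouring gene on the other strand. Its start was nearer than that of DLEU2 to the last summit, at 578 bp. The peaks near the first start site of DLEU2, in both TKO libraries, count for ENSG00000274270 as well. At all summits but that last one the DLEU2 start was nearer, but nearness does not show which gene a peak serves. The mature miR-15a-5p was 32873 and 32565 bp downstream of the nearest summit in the 2 TKO libraries. Another 2 peaks in each TKO library lay inside the gene outside the 5 kb windows, 123 and 188 bp from the start of MIR3613 and 68 and 176 bp from that of TRIM13, at 0.752, 1.30, 1.20 and 1.76 RPM.

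The DLEU2 site called in both TKO libraries near the first start site holds a CATGCG, shown in capitals (hg19, minus strand, centred on the summit of TKO replicate 2, where the level was 0.997 RPM).
DLEU2, chr13:50699000-50699120: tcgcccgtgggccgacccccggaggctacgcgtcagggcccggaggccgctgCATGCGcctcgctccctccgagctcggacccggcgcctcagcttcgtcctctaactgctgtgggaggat

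MIR100HG (ENSG00000255248), host of miR-100, let-7a-2 and miR-125b-1, is the longest of the 6 genes, from 121899033 to 122427429 on the minus strand of chromosome 11 with 15 start sites. It had no parental peak, 3 peaks in TKO replicate 1 and 1 in TKO replicate 2. The site common to both TKO libraries was 242 and 218 bp upstream of an internal start site, with 30 and 37 reads, or 1.50 and 2.84 RPM. None of these peaks lay within 5 kb of the 5'-most start site of the gene, and at a fold of at least 5 MIR100HG had no peak in TKO replicate 1. The fold percentiles were lower, 20.9 and 66.3, and the local background was 6.46 and 4.77 reads. The mature miR-100-5p, let-7a-5p and miR-125b-5p began 50949, 56656 and 103415 bp downstream of the common site's summit in TKO replicate 1. From the nearest summit assigned to the gene in that library they began 23204, 28911 and 75670 bp downstream. The other 2 assigned peaks of TKO replicate 1 were 4938 bp downstream and 222 bp upstream of a start site, with 1.20 and 1.25 RPM. Both were at the low end of their list, at fold percentiles of 12.2 and 3.64. A further peak of that library lay inside the gene but outside the 5 kb windows, 6652 bp from a MIR100HG start site. It had 1.20 RPM and a fold percentile of 27.0, above the 20.9 of the common site.

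The common MIR100HG site is printed because its level in TKO replicate 2 was the highest there after MIR17HG, and none of the 5 motifs searched lies in it (hg19, minus strand, centred on the summit of TKO replicate 2).
MIR100HG, chr11:122073869-122073989: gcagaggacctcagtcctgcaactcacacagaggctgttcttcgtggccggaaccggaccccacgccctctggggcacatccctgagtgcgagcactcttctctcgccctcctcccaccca

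**Figure D4:**
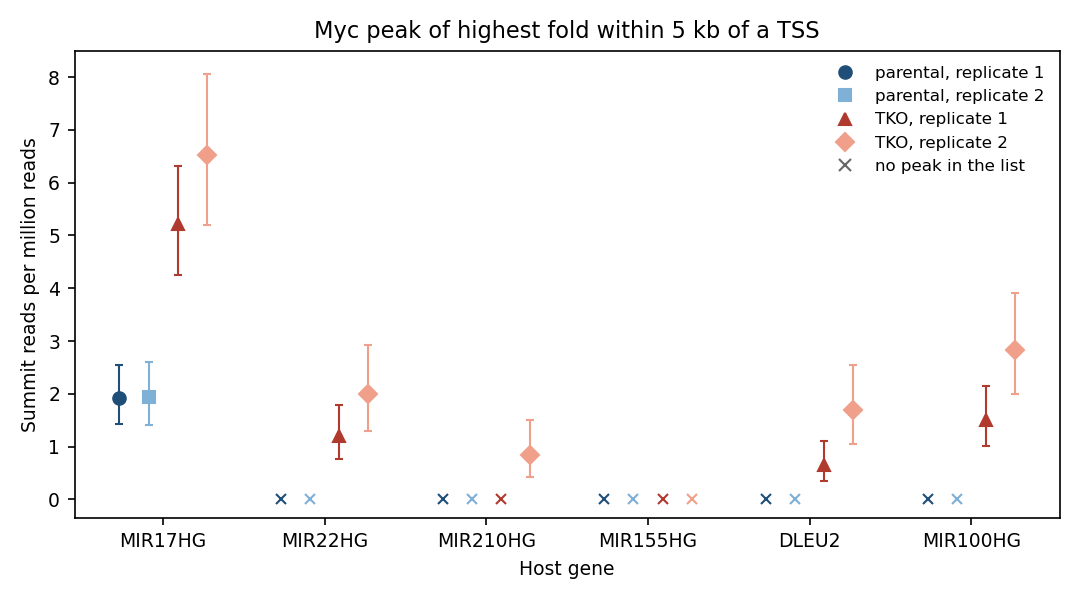
RPM of the peak of highest fold of each host gene in each library, with exact Poisson 95% intervals as bars (counting error only) and crosses at 0 where the list has no peak. MIR17HG alone has parental values, 1.93 and 1.94, and its TKO values of 5.21 and 6.52 exceed the 0.652 to 2.84 of the other genes.

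MIR210HG (ENSG00000247095), host of miR-210, lies at 565657 to 568457 on the minus strand of chromosome 11. Its single peak, in TKO replicate 2, had 11 reads and 0.844 RPM, 525 bp downstream of the nearest of its 2 start sites, with a fold percentile of 25.0. The start of the MIR210 hairpin was nearer, at 276 bp, and miR-210-3p began 211 bp upstream of the summit. The nearest peak in TKO replicate 1 was 6847 bp from a MIR210HG start site, and those of the parental libraries were 61858 and 61296 bp away.

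MIR155HG (ENSG00000234883), at 26934122 to 26947480 on the plus strand of chromosome 21, had no peak in any list. The nearest peaks to its 1 start site were 45.8 and 45.7 kb away in TKO replicates 1 and 2, and 3323 and 1281 kb away in parental replicates 1 and 2. Its occupancy was not detectable at the thresholds of these lists.

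Among the 5 genes with a peak in TKO, the order below MIR17HG differed between scales. By the highest RPM of any of its peaks, TKO replicate 2 gave MIR17HG 6.52, MIR100HG 2.84, MIR22HG 2.07, DLEU2 1.69 and MIR210HG 0.844. The Poisson interval of MIR100HG overlapped those of MIR22HG, 1.36 to 3.01, and DLEU2, 1.06 to 2.55. Overlap of intervals is no test of a difference, and the order of these 3 was not tested. TKO replicate 1 gave MIR17HG 5.21, both MIR100HG and MIR22HG 1.50 with 30 reads each, and DLEU2 1.35. By the percentile of the highest fold MIR100HG stood below MIR22HG and DLEU2 in both TKO libraries.

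The canonical E-box CACGTG was absent within 50 bp of every one of the 31 summits, on either strand. Over all peaks within 5 kb of a TSS, CACGTG was near 22.1% and 18.3% of the summits in parental replicates 1 and 2 and near 8.57% and 7.37% in TKO replicates 1 and 2, against 1.47% to 1.83% in windows 1 kb away. Allowing also the variant CATGTG, the variant CACGCG, the variant CATGCG and the variant CACGAG, 8 of the 31 summits had a motif, CATGTG at 4 peaks, CATGCG at 3 and CACGAG at 1. The 4 with CATGTG were the MIR17HG intronic peak of parental replicate 1, the MIR17HG start-site peaks of both TKO libraries and the downstream MIR100HG peak of TKO replicate 1. In TKO replicate 1, 4 of 15 member peaks had at least 1 of the 5 motifs and in TKO replicate 2, 3 of 13, where 29.2% and 25.6% of all peaks within 5 kb of a TSS did. Windows 1 kb from those summits held 1 of the 5 motifs in 10.9% and 10.7% of cases. GC content within 100 bp of the 31 summits ran from 41.3% to 73.1% with a median of 62.2%, close to the medians of 61.2% to 63.2% over all such peaks.

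The wider set of host genes was used to set the 6 beside others of their kind. Of 83 genes named as microRNA hosts by symbol (MIR...HG), 9.64% and 14.5% had a peak in parental replicates 1 and 2 and 38.6% and 36.1% in TKO replicates 1 and 2. Of all 18702 long non-coding RNA genes it was 5.96%, 7.80%, 26.0% and 26.0%. Among 33 protein-coding hosts the shares were 18.2%, 18.2%, 69.7% and 63.6%, and among all protein-coding genes 13.9%, 15.5%, 54.5% and 55.4%. The 13 hosts of microRNAs known to be lowered by Myc, a list that includes MIR22HG, DLEU2 and MIR100HG, had peaks at 3 and 4 genes in parental cells and 11 and 10 in TKO. In every one of these lists the 2 TKO libraries had more genes with a peak than the parental ones, as in the genome as a whole.

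**Figure D5:**
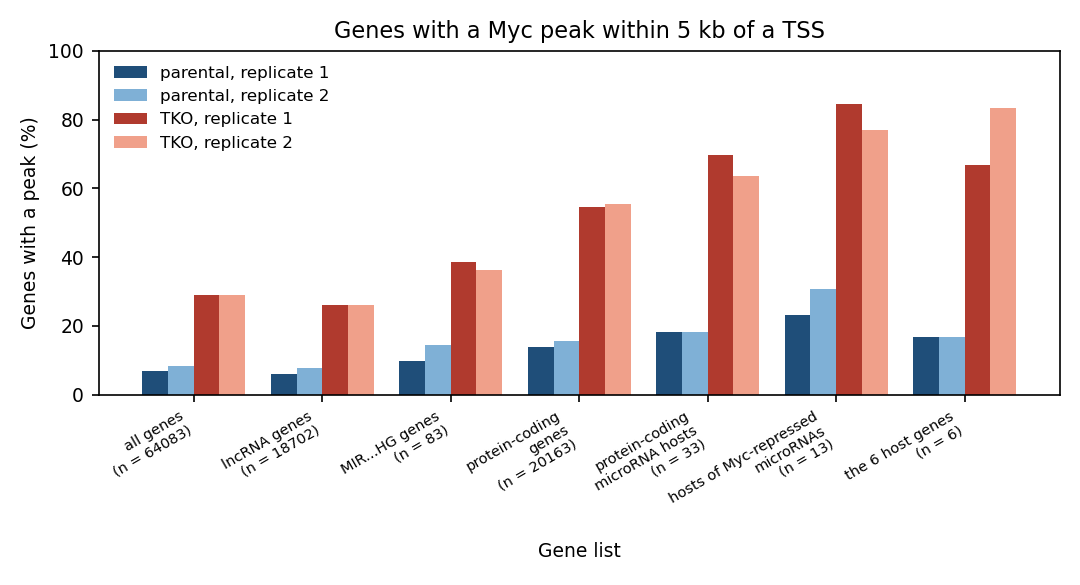
Percentage of the genes of each list with a Myc peak within 5 kb of a TSS, 1 bar per library, with the number of genes in parentheses. TKO bars are above parental bars in all 7 lists, including all genes, where they are 28.9% and 29.0% against 7.01% and 8.33%.

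Other hosts of let-7 and of Myc-lowered microRNAs were occupied in parental cells too. MIRLET7A1HG, which makes let-7a, let-7d and let-7f, had a peak in all 4 libraries at fold percentiles of 95.9, 99.4, 97.9 and 98.8. NFYC, a CCAAT-binding subunit that hosts members of the miR-30 family, was at 15.8, 83.9, 89.7 and 87.8, and CTDSP1, a phosphatase that hosts miR-26b, at 55.3, 76.0, 84.6 and 85.7. MIR29B2CHG had a peak in parental replicate 2 at 9.94 and in both TKO libraries at 62.3 and 57.9. CTDSPL, MIR34AHG and MIRLET7BHG had peaks in both TKO libraries and in no parental one, at 66.9 and 38.5, 29.6 and 42.9, and 46.8 and 58.9. CTDSP2 had peaks in TKO replicate 1 alone, at 80.7, and MIR497HG and MIR99AHG had none. Of the 13 hosts of Myc-lowered microRNAs, 3 thus had a peak in all 4 libraries, or 23.1%. NFYC and CTDSP1, 2 of these 3, are protein-coding. The share was 5.46% of all genes, 4.65% of long non-coding RNA genes and 10.9% of protein-coding genes, and the difference was not tested.

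MCM7, a replication licensing subunit that hosts the miR-106b cluster, a paralogue of the MIR17HG cluster, had a peak in all 4 libraries at 94.9, 97.6, 93.9 and 98.0. Of the 117 genes of the wider set, 12 had a peak in all 4, MIR17HG among them. By list this was 9.64% of the MIR...HG genes and 12.1% of the protein-coding hosts, against 5.46% of all genes and 10.9% of protein-coding genes. The other 5 genes of highest mean fold percentile in TKO were MIR3677HG (99.8), MIRLET7IHG (98.6), MIR762HG (95.03), SREBF1 (93.5) and MIR23AHG (91.5). At MIR3677HG the strongest TKO peaks were 48 and 13 bp from the start of RNPS1, a splicing factor gene, and at MIR762HG they were 104 and 53 bp from the start of MIR4519, nearer than to the host's own.

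Likeness between genes was taken as the Euclidean distance of the 4 fold percentiles, with 0 where a library had no peak, over the 117 genes. MIR17HG was most like MIR3677HG, at 1.52 percentile points, and MIRLET7A1HG, at 3.51. MIR22HG was most like TLN2, at 1.92, DLEU2 most like MIR378D2HG, at 6.01, and MIR210HG most like MIR194-2HG, at 2.66. MIR100HG had no close neighbour, with MIR9-3HG nearest at 22.7.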

How the data were processed

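MDA-MB-231 Myc ChIP-seq was analysed from 4 deposited MACS2 peak lists (parental and TKO, 2 libraries each); input libraries were not analysed here. The authors aligned single reads to hg19 with NovoAlign 3.08.02 and called peaks per library with MACS2 2.1.1.20160309; how duplicate reads were treated is not given in the sources used here. The lists end at a −log10 q-value of 2.03 to 2.07, as a q-value cutoff would give, and the study names both a p-value and a q-value cutoff. The deposited fold enrichment is a ratio, of the pile-up at the summit over that expected locally, with a small constant added to both. The reads in that pile-up were scaled by 0.837 and 0.997 in parental replicates 1 and 2 and left unscaled in TKO. Significance was deposited by the authors as −log10 p-value, and as −log10 q-value after correction. The deposited score, an integer scaling of −log10 q, was not used further.

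Summit reads and local background were solved from fold and p-value. A whole number of reads matched within 0.002 on the −log10 scale for 100% of the peaks in each list. Depth came from the lowest background, the narrowest peak as extension length and an assumed genome of 2700000000 bases. The narrowest peaks were 140 and 151 bp in the parental lists and 182 and 201 bp in the TKO lists. The recovery was tested on simulated data.

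Peaks were placed on GENCODE v44 lifted to GRCh37, in which no peak ended beyond its chromosome. Mature microRNAs were located in GRCh37 by exact match within their host on its strand. Motifs were searched on both strands within 50 bp of summits. All 6 genes are named; the Myc-lowered hosts and MCM7 are named from the wider set, with the 5 others of highest mean TKO percentile. The members and lists were chosen with earlier results of these data known. Groups were compared by exact permutation tests. With 2 against 2 libraries such a p-value is 0.333 whenever the groups do not overlap, whatever the spread between libraries. Alternatives were stricter thresholds, equal list lengths, other windows, transcripts, site definitions and measures, each library left out, and a replicate block. Software was pysam 0.24.0 and samtools 1.23.1 for sequence, and scipy 1.17.1, matplotlib 3.10.9, numpy 2.4.6 and pandas 2.3.3 under Python 3.11.15.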

Additional observations from a re-analysis of the deposited data

How the results depend on the processing

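The ratio of TKO to parental peaks summed over the 6 genes, 9.33, was 5.67 at a fold of at least 5, 21 with a 1 kb window and 1 with equal numbers of peaks, and 7 to 14 with each library left out. The difference in genes with a peak, 3.5, was 0 with equal numbers of peaks and 3 to 4 with a library left out. The median ratio at host gene sites called in every library, 3.03 at the MIR17HG intronic site alone, was 1.81 by fold enrichment, 2.29 over the genome background, an alternative chosen after seeing the data, and 2.48 to 3.37 with a library left out. The 2.48 came without parental replicate 1, where it is a median over 2 sites, the start-site peak included. The intronic site itself ranged from 2.70 to 3.37. The value over the genome background is the RPM ratio with each library rescaled by its extension length, so it is no separate test. With a 1 kb window that ratio had no value, since no site was called in all 4 libraries, and it was not computed for equal lists. The count of strongest peaks with CACGTG, 0, was 0 with windows of 100 and 200 bp, with a 1 kb TSS window and with either TKO library left out. MIR100HG had no peak in either TKO library with the 5'-most TSS alone, and none in TKO replicate 1 at a fold of at least 5. MIR210HG had none at that fold or at a −log10 q-value of at least 5. With a 10 kb window MIR22HG had a peak in parental replicate 1 and MIR210HG in both TKO libraries. In a replicate block, taking libraries of the same number as pairs, the values were 9.87, 3.5 and 3.01. Deviations of same-numbered libraries had a correlation of 0.0105 over 2631 sites. A shift common to all sites would not show in this correlation, so whether same-numbered libraries were handled together was not tested. The lowest level of any peak, 0.451 to 0.537 RPM, is no detection limit, since calls also depend on depth and local background.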
